A study of Mus musculus with 10 samples.

Results

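The genes that carry, activate and sense thyroid hormone in liver were examined in 10 mouse livers: the plasma carriers Serpina7 and Ttr, the membrane transporter Slc16a10, the deiodinase Dio1, and the nuclear receptors Thra and Thrb. They were matched by gene symbol to 14 probe sets, 1 each for Serpina7, Dio1 and Thrb, 3 for Thra, and 4 each for Ttr and Slc16a10, and are 6 of 18193 genes measured. The genes were chosen by their role and with the phenobarbital-control values of these same arrays known, so those values are given for them as a description, without p-values, and whether a fit called them is stated only as a count or mark with no weight as evidence. The animals were male B6C3F1/Crl mice (C57BL/6 sires, C3H/He dams), 29 to 32 days old on arrival and given 5 days to settle. In the treated group, 5 mice had phenobarbital at 0.05% (w/v) in the water they drank freely for 28 days. The control group was 5 mice of the same strain, sex and age with no phenobarbital, and each liver was read on its own Affymetrix array. Phenobarbital is a barbiturate that switches on drug-metabolising genes through the constitutive androstane receptor.

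The thyroid releases mostly thyroxine (T4), a prohormone, which plasma proteins carry to the tissues. Liver cells take it up, remove an iodine to make the active hormone T3, and bind T3 to nuclear receptors that raise or lower target genes. Liver also clears the hormone by attaching glucuronic acid or sulphate, and drugs that induce these conjugating enzymes in rodents, phenobarbital among them, are known for speeding thyroxine removal.

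Serpina7 was lower and Dio1 higher in every treated liver than in any control, while the values of Ttr met at 1 value and those of Slc16a10, Thra and Thrb overlapped between the groups on their brightest probe sets. Serpina7 stood 2.93-fold lower (phenobarbital minus control -1.55 ± 0.16 SE on the log2 scale) and Dio1 1.56-fold higher (0.64 ± 0.08 SE). These are also the only 2 of the 6 genes called by limma, at an adjusted p under 0.05 over all genes, beside 20.3% of all genes called, 9.02% higher and 11.3% lower. The groups failed to overlap in 12.9% of all genes. The members' own choice used this contrast, so nothing is read from their count.

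The promoters of Serpina7 and Dio1, the pair whose groups did not overlap, are shown as the 250 bases before the start of the RefSeq transcript on build GRCm38.p6. They are written 5′ to 3′ on the minus strand, the strand of both genes. Serpina7 lies at chrX:139085237-139085486, upstream of the first of its 2 RefSeq starts, and Dio1 at chr4:107307169-107307418. Capitals mark AGTTCA and TATAAA.
Serpina7: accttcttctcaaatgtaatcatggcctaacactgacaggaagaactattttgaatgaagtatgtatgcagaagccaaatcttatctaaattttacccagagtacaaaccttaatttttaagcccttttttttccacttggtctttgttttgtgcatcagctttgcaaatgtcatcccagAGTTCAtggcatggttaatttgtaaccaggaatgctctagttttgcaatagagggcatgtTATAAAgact
Dio1: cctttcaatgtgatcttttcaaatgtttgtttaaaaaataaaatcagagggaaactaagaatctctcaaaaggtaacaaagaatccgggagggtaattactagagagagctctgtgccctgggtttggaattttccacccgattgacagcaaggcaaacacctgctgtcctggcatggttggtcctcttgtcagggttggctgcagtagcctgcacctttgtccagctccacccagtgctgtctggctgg

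AGGTCA is the half-site that thyroid hormone receptors and their relatives read, AGTTCA is a variant used by several of the same receptor family, and TATAAA is the TATA box. Both strands were searched, and the motifs do not overlap one another in these windows. The Serpina7 window held 1 AGTTCA, which begins 70 bases before the start, and 1 TATAAA, which begins 10 bases before it. Counted from the second RefSeq start of Serpina7, the same AGTTCA begins 87 bases and the same TATAAA 27 bases upstream. The Dio1 window held none of these letters, and neither window held AGGTCA or a pair of it spaced by 4 bases. Among 32851 RefSeq promoter windows of the same length, AGGTCA was in 14.0%, AGTTCA in 11.8%, TATAAA in 12.4% and the spaced pair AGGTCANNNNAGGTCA in 0.0152%. These matches describe letters and were not tested for binding.

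The treatment was visible in Cyp2b10, the cytochrome P450 that phenobarbital classically induces, at 6.47 ± 0.66 in controls and 13.52 ± 0.04 in treated livers (SD, n = 5 each; limma adjusted p = 1.78e-09). The deposited values run from 2.34 to 15.13 on the log2 scale, array medians lay between 5.42 and 5.50, and the number of arrays limits the precision. Bacterial poly-A RNAs are spiked in before labelling, and their 24 probe sets averaged 7.77 to 8.64 on control replicates 1, 2, 3 and 5 but 6.40 on control replicate 4 and 5.76 to 6.58 on the treated arrays. No label names a batch. The differences of all probe sets of the 6 genes are therefore also plotted with these 2 sets of arrays as a block. For the other genes such values are given in the text for some only. In the block fit a difference equals the treated mean minus control replicate 4 and rests on that single control. That fit called 0.786% of all genes. The 3' minus 5' signal of actin, a sign of RNA integrity, was 1.28 to 1.78 in controls and 1.19 to 1.33 in treated livers. Control replicate 4 gave the 1.28, and control replicates 1, 2, 3 and 5 gave 1.46 to 1.78, above every treated liver. The same signal of Gapdh was -0.15 to -0.03 in controls and -0.28 to -0.21 in treated livers. The part of both signals in the results was not tested. The whole-liver label was checked on hepatocyte markers, 6 of 6 measured and none called, whose mean level was 14.37 to 14.43 in controls and 14.29 to 14.41 in treated livers. Single markers averaged 13.05 to 14.97, in the upper part of the scale, and whether their signal was saturated was not tested. Stellate and endothelial markers were lower in treated livers, each with 3 of 5 called. Their mean levels were 8.35 to 8.51 against 7.92 to 8.26 and 8.22 to 8.75 against 7.97 to 8.41. Kupffer markers (7.62 to 8.15 against 7.79 to 8.14) and lymphocyte markers (5.20 to 5.42 against 5.15 to 5.26) had no call, and cholangiocyte (Epcam, of 4) and erythroid markers (Alas2, of 2) had 1 higher call each. Mean levels there were 5.24 to 5.56 against 5.35 to 5.50 and 7.40 to 7.76 against 7.58 to 7.86. The part of these cell types in the results was not tested, and in whole liver fewer cells of a type and less RNA per cell cannot be told apart.

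Serpina7 encodes thyroxine-binding globulin, the plasma carrier with the tightest grip on thyroxine. It is made in liver, and in adult rodents much of the hormone travels on transthyretin and albumin in its place. The log2 values of its probe set (1438617_at) were 8.40, 8.79, 8.17, 7.97 and 8.85 in control replicates 1 to 5. In phenobarbital replicates 1 to 5 they were 7.07, 6.54, 6.99, 6.91 and 6.91. The lowest control lay 0.90 above the highest treated liver, and the controls spread more (8.44 ± 0.38 against 6.88 ± 0.20, SD, n = 5 each). In size, 0.214% of all genes had a larger difference, in either direction. Leaving out 1 animal at a time moved the difference between -1.67 and -1.45. Control replicate 4 was the lowest control, and with the spike-in block the difference was -1.09 ± 0.24 (SE) and Serpina7 was not called.

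Ttr encodes transthyretin, which carries thyroxine and, through retinol-binding protein, retinol. Its 4 probe sets lay between 14.25 and 14.84 on all 10 arrays and so close to the highest value in the table (15.13). Whether this signal was saturated was not tested. On the brightest (1454608_x_at) the controls stood at 14.82, 14.84, 14.83, 14.82 and 14.82, and the treated livers at 14.77, 14.77, 14.82, 14.82 and 14.82. Differences over the 4 probe sets ran from -0.05 to 0.02, each with an SE of 0.05 or 0.06, and the groups overlapped on 3 of them and met at 14.82 on the brightest. None of them was called singly.

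Slc16a10 encodes MCT10, a transporter of aromatic amino acids that also moves thyroid hormones across the cell membrane. Its brightest probe set (1434592_at) gave 8.88, 8.97, 9.15, 9.20 and 8.80 in controls and 8.57, 8.93, 8.83, 8.97 and 8.79 in treated livers. The groups overlapped, and the difference was -0.18 ± 0.10 (SE). All 4 probe sets lay lower on average in treated livers, by -0.23 to -0.14, and none was called when every probe set was tested singly, a test that called 20.3% of probe sets. The 2 dimmer ones turned to 0.03 ± 0.19 and 0.36 ± 0.23 (SE) with the spike-in block, while the 2 brighter ones stood at -0.38 ± 0.16 and -0.41 ± 0.18. The dimmest ranged from 4.36 to 5.40, below the median of every array.

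Dio1 encodes type 1 deiodinase, a selenocysteine enzyme of liver, kidney and thyroid that converts thyroxine to T3 and clears reverse T3, and whose own gene is raised by T3. Its only probe set (1417991_at) gave 9.90, 9.58, 9.83, 9.65 and 9.91 in control replicates 1 to 5. The treated livers gave 10.29, 10.47, 10.47, 10.37 and 10.49. All treated values lay above all controls, by 0.38 at the nearest, and the treated group was the tighter one (10.42 ± 0.09 against 9.77 ± 0.15, SD, n = 5 each). In size, 2.08% of genes had a larger difference. With 1 animal left out the difference stayed between 0.60 and 0.68. With the spike-in block it was 0.77 ± 0.13 (SE), and Dio1 was the only 1 of the 6 genes called by that fit.

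Thra and Thrb encode the nuclear receptors for T3, TR-alpha and TR-beta, of which TR-beta is known as the main form in liver. Thra also yields a splice form that does not bind the hormone. The 3 probe sets of Thra differed in sign over all 10 arrays. The brightest (1443952_at) read 7.73, 7.60, 7.66, 7.86 and 7.71 in controls and 7.30, 7.61, 7.64, 7.46 and 7.36 in treated livers, a difference of -0.24 ± 0.08 (SE). The groups overlapped there through phenobarbital replicates 2 and 3. The dimmest (1426997_at) read 7.00, 6.84, 6.87, 7.09 and 6.88 in controls and 6.73, 6.70, 6.74, 6.80 and 6.83 in treated livers, so that the groups stood just apart (-0.18 ± 0.07 SE). The remaining one (1454675_at) ranged from 7.02 to 7.35 in controls and from 7.03 to 7.38 in treated livers, with a difference of 0.09 ± 0.08 (SE). None of the 3 was called singly. With the spike-in block all 3 lay below 0, at -0.39, -0.33 and -0.09 in that order. The files do not say which splice form each probe set reads.

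Thra lies beside Nr1d1, a clock repressor transcribed from the other strand, whose end overlaps that of one Thra splice form. Nr1d1 stood at 6.44 ± 0.18 in controls and 6.62 ± 0.32 in treated livers (SD, n = 5 each; limma adjusted p = 0.377). Thrb was read by a single probe set (1422202_at) at 6.33, 6.35, 6.29, 6.13 and 6.60 in controls and 6.24, 6.28, 6.20, 5.95 and 6.39 in treated livers. The groups overlapped over most of their range, and the difference of -0.13 ± 0.10 (SE) became 0.08 ± 0.16 with the spike-in block.

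**Figure D1:**
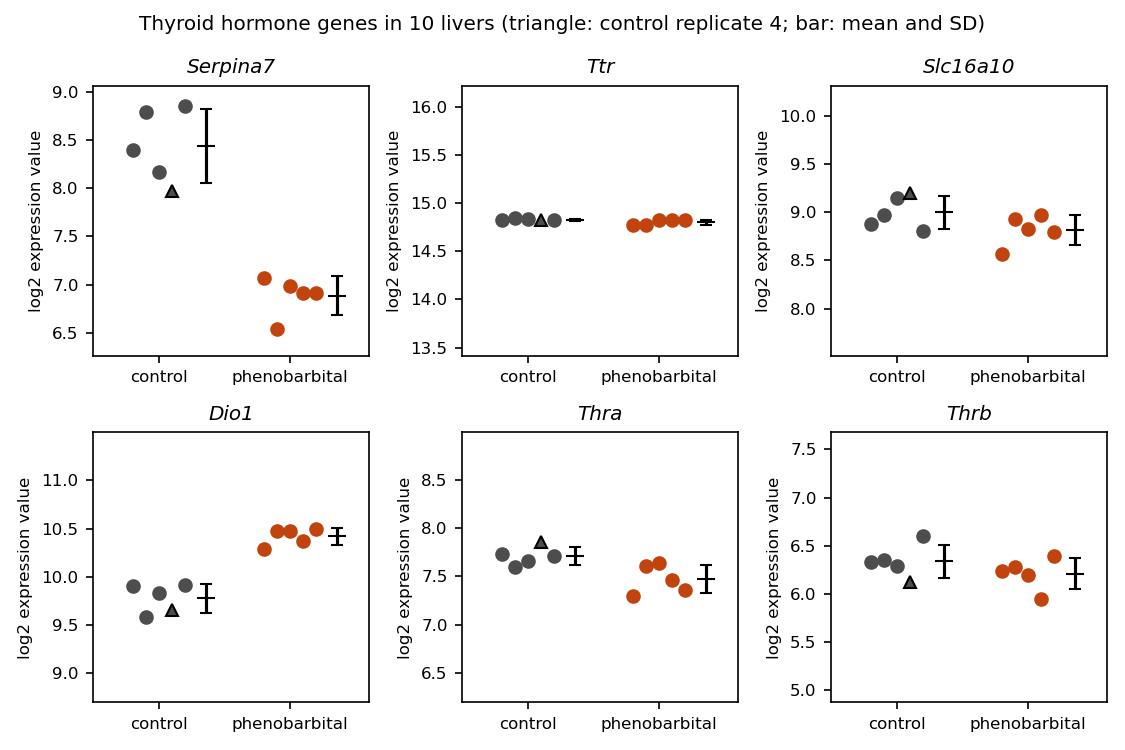
Log2 expression value of the brightest probe set of each gene (y axis, the same span in every panel) in 5 control and 5 phenobarbital livers, 1 point per array, with the mean and SD as bars and control replicate 4 as a triangle. Serpina7 (7.97 to 8.85 against 6.54 to 7.07) and Dio1 (9.58 to 9.91 against 10.29 to 10.49) separate by group, Ttr meets at 14.82, and Slc16a10, Thra and Thrb overlap.

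**Figure D2:**
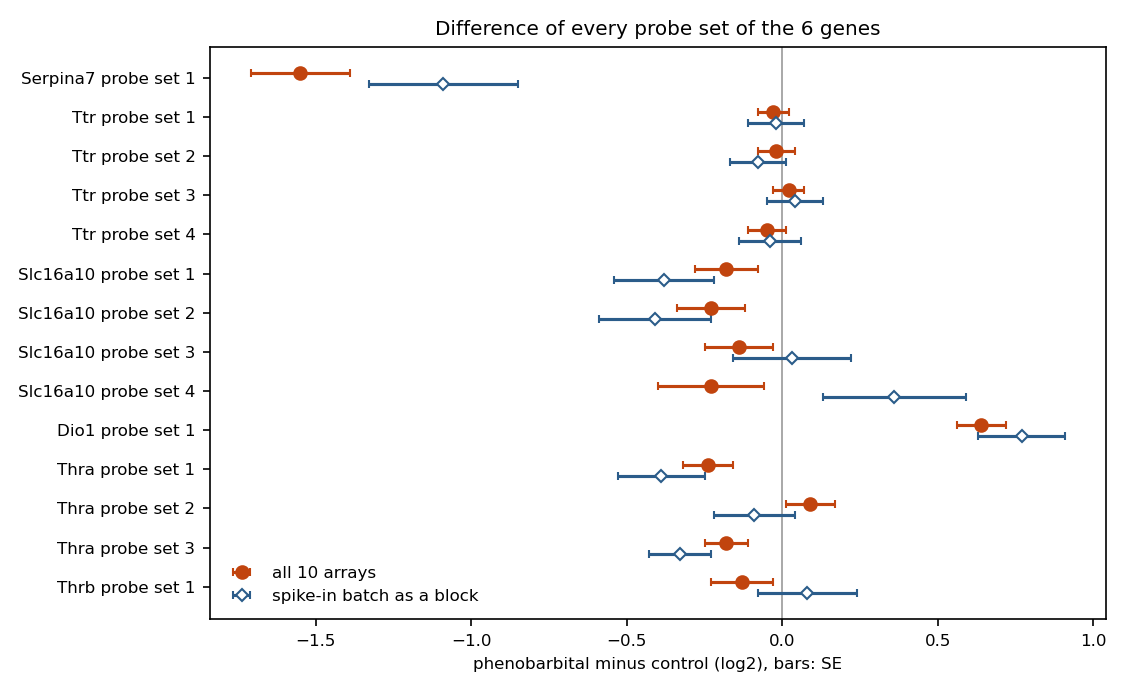
Phenobarbital minus control on the log2 scale (x axis, bars: SE) for all 14 probe sets, numbered within a gene from the brightest, over all 10 arrays (filled) and with the spike-in batch as a block (open). The Serpina7 value moves from -1.55 to -1.09 and that of Dio1 from 0.64 to 0.77. The Thra probe sets differ in sign over all 10 arrays, and the Slc16a10 probe sets do so only with the block.

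Control replicate 4 shares its range of spike-in values with the treated livers. Among these 6 arrays Serpina7 was 7.97 in the control against 7.07 at most in treated livers, and Dio1 was 9.65 against 10.29 at least.

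**Figure D3:**
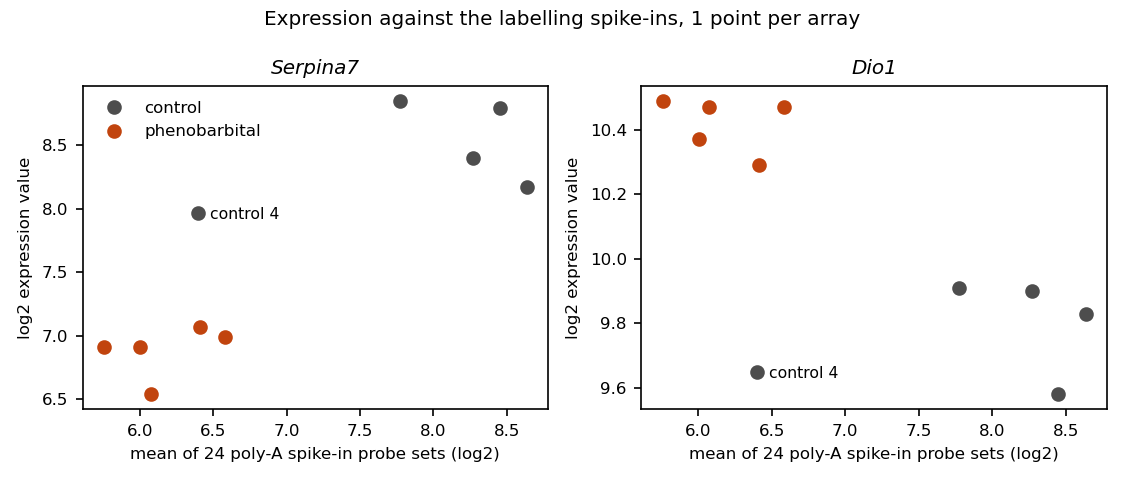
Log2 expression value (y axis) of Serpina7 and Dio1 against the mean of 24 poly-A spike-in probe sets (x axis, log2), 1 point per array. Control replicate 4, at a spike-in mean of 6.40, lies with the other controls for Dio1 (9.65). For Serpina7 it is the lowest control (7.97), above every treated liver (7.07 at most).

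The genes whose profiles lay closest to these were taken by the root mean square difference of centred log2 values over the 10 arrays, among 9095 brighter genes. For Serpina7 they were Rdh16f2, a member of the retinol dehydrogenase family (0.30, phenobarbital minus control -1.48), Taok3, a protein kinase (0.32, -1.22), and Ppargc1a, the coactivator PGC-1alpha (0.37, -1.42). For Dio1 they were Ginm1, a glycosylated membrane protein (0.09, 0.58), Ugt2b34, a glucuronosyltransferase (0.10, 0.66), and Chic1 (0.10, 0.58). Likeness here mostly describes genes that differ by a similar amount between the 2 groups of arrays, which also differ in spike-in signal. With the spike-in block Serpina7 moved to -1.09, Rdh16f2 to -1.43, Taok3 to -0.73 and Ppargc1a to -0.92.

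The rest of the pathway was followed in 6 lists, holding none of the 6 genes above. Of 83 listed genes 69 were measured, and 16 were called higher and 10 lower by limma, 37.7% against 20.3% of all genes. Most of the 69 were among the brighter genes, those with a mean above the median of all genes. Where only brighter genes were tested, 26 of 62 pathway genes and 2636 of all 9095 were called. The lists were chosen with earlier results of these data known, so nothing is read from these shares. The median difference of the 69 genes was 0.04 against 0.008 over all genes. With the spike-in block 4 were called, all on the conjugation list and all higher.

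Other carriers held 1 called gene of 4. Serpina6, corticosteroid-binding globulin and a serpin hormone carrier like Serpina7, rose from 11.28 ± 0.30 to 12.10 ± 0.15 (SD, n = 5 each; difference 0.82 ± 0.13 SE, limma adjusted p = 0.00153), without overlap. With the spike-in block its difference was 0.44 (limma adjusted p = 0.32). The differences of Serpina7 and Serpina6 lay on opposite sides of 0 in both fits. Albumin, Alb, stood at 14.98 ± 0.02 and 14.96 ± 0.01, and Crym, which holds T3 in the cytosol, at 6.84 ± 0.20 and 6.97 ± 0.23, and neither was called. Alb lay close to the highest deposited value (15.13), and whether its signal was saturated was not tested.

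Among membrane transporters, 1 of 10 was called. Slco1a1, an organic anion carrier of the hepatocyte surface, fell from 12.60 ± 0.09 to 12.11 ± 0.07 (SD, n = 5 each; limma adjusted p = 0.000479), and its difference was -0.38 with the block (limma adjusted p = 0.136). The median of the list was 0.05.

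Among other deiodinases, iodine salvage and selenoprotein synthesis, 3 of 14 genes were called, all higher, with a list median of 0.02. Eefsec, the elongation factor that delivers selenocysteine, rose by 0.47 ± 0.11, the antioxidant selenoenzyme Gpx4 by 0.28 ± 0.07 and the thioredoxin reductase Txnrd1 by 0.25 ± 0.07 (SE; limma adjusted p between 0.00928 and 0.0175). Txnrd1 was called on 1 of its 3 probe sets, and on their mean it stood at 0.11 and was not called. With the block Eefsec stood at 0.05, Gpx4 at 0.20 and Txnrd1 at 0.11, none called. Secisbp2, which binds the selenocysteine signal in the RNA, stood at 8.56 ± 0.14 and 8.65 ± 0.14 and was not called, although 1 of its 2 probe sets was called lower when tested singly. Dio2, the deiodinase of brown fat and brain, was low in liver at 5.82 ± 0.05 in controls and 5.97 ± 0.12 in treated livers (SD, n = 5 each; limma adjusted p = 0.153). Dio3 was not analysed here. Dio1 itself stood at 0.64, but it was chosen with this contrast known, so nothing is read from its size beside this list.

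Among receptor partners and coregulators 5 of 14 were called, all lower, with a list median of -0.14. Ppargc1a, a coactivator of several nuclear receptors, fell from 8.27 ± 0.45 to 6.85 ± 0.34 (SD, n = 5 each; limma adjusted p = 0.000959), on 5 of 5 probe sets. Tbl1x, a subunit of a nuclear receptor corepressor complex, fell by 0.34 on the log2 scale, on 3 of 3 probe sets (limma adjusted p = 0.0161). The coactivator genes Ncoa1, Ncoa2 and Med1 were called lower at -0.26, -0.30 and -0.30, but on 1 probe set each, of 3, 4 and 7. Other probe sets of Med1 went the other way, 2 of them called higher, and none of these 3 genes was called on the mean of its probe sets. Ncoa2 lost its call in 6 of 10 omissions (each of controls 1, 2 and 3 and treated livers 1, 2 and 5, values -0.28 to -0.26) and with arrays centred on their medians (-0.27). Ncoa1 and Med1 lost theirs with quantiles made equal (-0.19 and -0.23) and in 1 omission each, of phenobarbital replicate 2 (-0.24) and of control replicate 3 (-0.25). With the spike-in block none of the 5 was called, and Ppargc1a stood at -0.92. The retinoid X receptor Rxra, the usual partner of thyroid hormone receptors on DNA, stood at 9.80 ± 0.25 and 9.86 ± 0.09 (SD, n = 5 each; limma adjusted p = 0.717).

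On the conjugation list 8 of 12 genes (66.7%) were called higher and none lower, beside 9.02% of all genes called higher. The median difference of the list was 0.41. The list was chosen with earlier results of these data known, so nothing is read from this share. The 8 include Sult1e1, whose means of 3.67 in controls and 4.08 in treated livers lay below the lower quartile of every array (4.13 to 4.20). The list holds enzyme families that attach sulphate or glucuronic acid to thyroid hormones and the enzymes that supply these groups. The sulphotransferases Sult1c2 and Sult1d1 rose by 1.17 ± 0.15 and 0.80 ± 0.11 (SE; limma adjusted p = 0.000366 and 0.000832). Sult1a1, which sulphates phenols, rose by 0.29 ± 0.07 (SE, limma adjusted p = 0.0119). Ugdh, which makes the glucuronic acid donor, rose by 0.68 ± 0.06 and Ugt2b34 by 0.66 ± 0.06 (SE; limma adjusted p = 3.23e-05 and 2.1e-05). With the block Ugdh stood at 0.61, Ugt2b34 at 0.64, Sult1c2 at 1.66 and Sult1d1 at 1.06, and these 4 kept their call. Some of these enzymes belong to close families whose probe sets can share sequence. The Ugt1a enzymes, main glucuronidators of thyroxine, were not analysed here.

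The genes that thyroid hormone raises in rodent liver did not move as 1 group: of 15 measured, 4 were called higher and 4 lower, with a range of differences from -1.11 to 1.49. Thrsp, the classical thyroid hormone-responsive gene of lipid synthesis, rose from 12.34 ± 0.61 to 13.83 ± 0.20 (SD, n = 5 each; limma adjusted p = 0.00155). Its controls ranged from 11.49 to 12.93 and its treated livers from 13.52 to 14.01. Me1, malic enzyme, rose by 0.54 ± 0.14 (SE, limma adjusted p = 0.0177), and fatty acid synthase, Fasn, by 0.98 ± 0.26 (SE, limma adjusted p = 0.0199). The 4th was Mlxipl, the sugar-sensing factor ChREBP, at 0.42 ± 0.10 (SE, limma adjusted p = 0.0105). These 4 take part in making fat or control it, but not every such gene on the list was called. With the spike-in block Me1 stood at 0.51 and Mlxipl at 0.15. A shared function was not tested.

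The genes called lower were Klf9, Pck1, Cpt1a and Gpd2. Klf9, a transcription factor induced by T3 and by glucocorticoids, fell from 12.29 ± 0.20 to 11.31 ± 0.50 (SD, n = 5 each; limma adjusted p = 0.00512), on 5 of 7 probe sets. Pck1, the gateway enzyme of glucose synthesis, fell from 12.80 ± 0.43 to 11.69 ± 0.47 (limma adjusted p = 0.00635). Cpt1a, which admits fatty acids to mitochondria, fell by 0.50 on the log2 scale (limma adjusted p = 0.00271). Gpd2, the mitochondrial glycerol phosphate dehydrogenase long used as a measure of thyroid hormone action, was called lower at -0.49 (limma adjusted p = 0.0365), but stood at 0.10 with the block. Gpd2 lost its call in 7 of 10 omissions of 1 animal (each of controls 1, 2, 3 and 5 and treated livers 1, 2 and 4, values -0.49 to -0.41), with quantiles made equal (-0.43) and on the mean of its probe sets (-0.29). Hr, a direct T3 target best known in brain and skin, stood at 5.77 ± 0.19 and 5.76 ± 0.09 (SD, n = 5 each). None of the 8 was called with the block, where Thrsp stood at 1.22, Klf9 at -0.90, Pck1 at -0.92 and Fasn at 0.84. Fasn also lost its call without phenobarbital replicate 2 (0.88) and with another variance model (0.98).

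**Figure D4:**
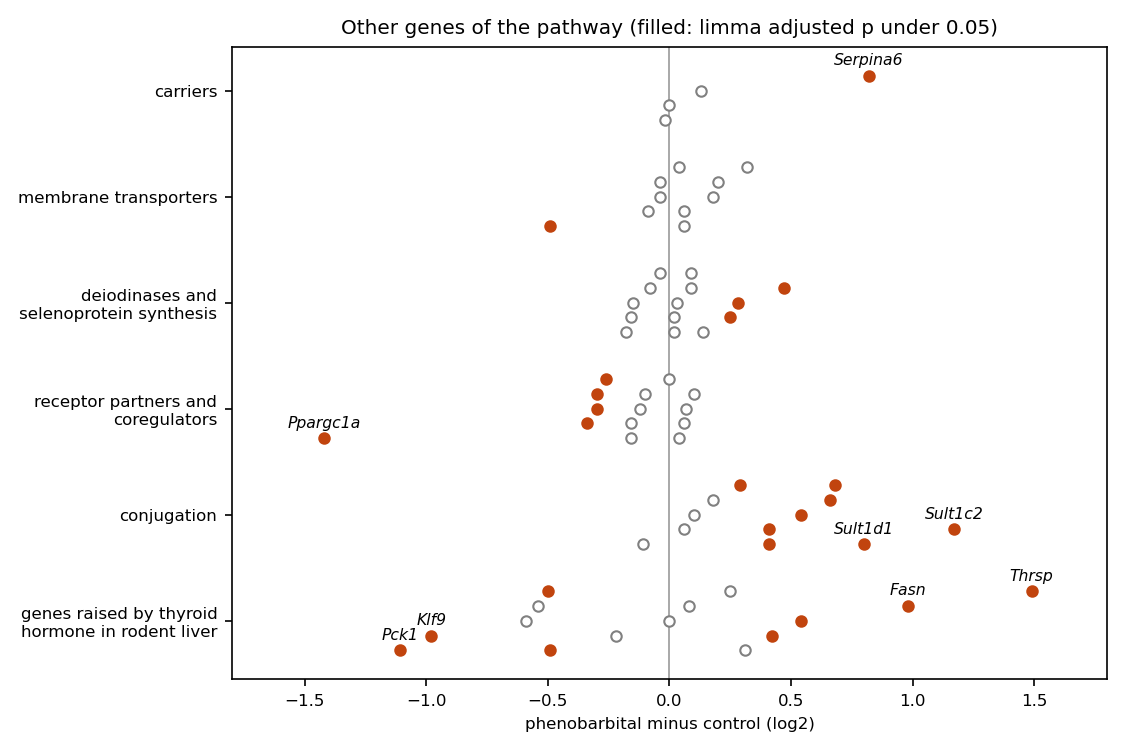
Phenobarbital minus control on the log2 scale (x axis) for 69 pathway genes in 6 lists (y axis), 1 point per gene, filled where limma's adjusted p was under 0.05. The filled points are all above 0 for conjugation (8 of 12), all below 0 for receptor partners (5 of 14), and on both sides for the genes raised by thyroid hormone (4 and 4 of 15).

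**Figure D5:**
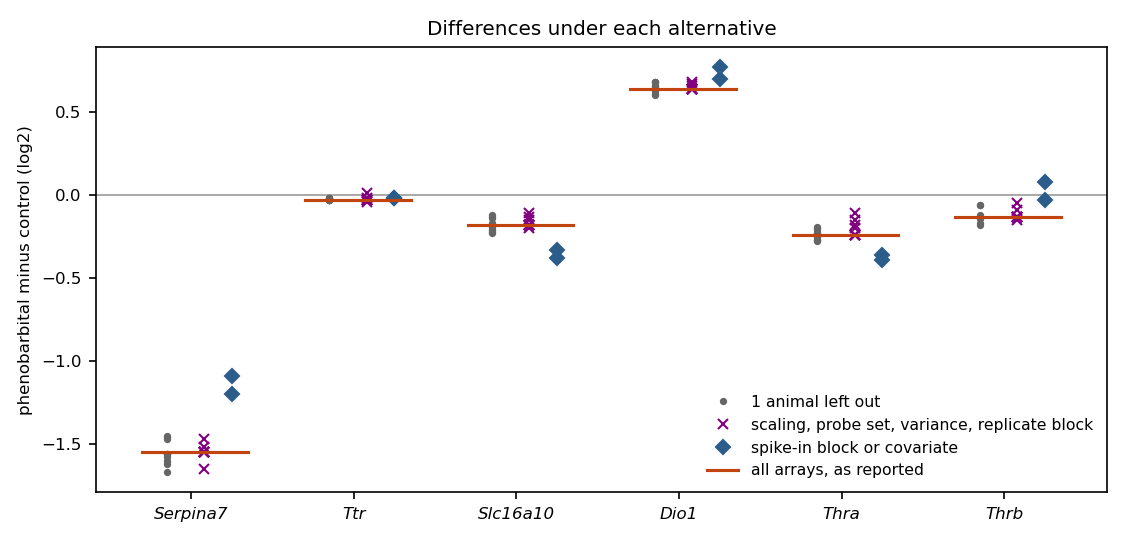
Phenobarbital minus control on the log2 scale (y axis) for the 6 genes (x axis) under every alternative, with the reported value as a line. Serpina7 stays between -1.67 and -1.09 and Dio1 between 0.60 and 0.77, and Thrb crosses 0 with the spike-in block (0.08).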

How the data were processed

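Total RNA from each liver was labelled from its 3' end and hybridised to an Affymetrix array, per the labels' protocols. The authors deposited log2 expression values for 45101 probe sets, and GCOS is named in the submitters' processing notes. The log base was read from the range of the values, and how probes were summarised and normalised was not given in the sources used here. Values were used as deposited, with arrays within 0.16 of each other at every quartile. The upper quartile was 7.39 to 7.46 on control arrays and 7.30 to 7.36 on treated arrays, without overlap. Results under other scalings are therefore given in the closing section.

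Symbols came from the platform annotation (34945 probe sets with 1 symbol, 932 with several, 9160 unlisted, 64 controls). Where a gene had several probe sets, the one brightest on average stood for it. The comparison used limma 3.58.1 in R 4.3.3 (lmFit, eBayes, two-sided, Benjamini-Hochberg over 18193 genes, threshold 0.05) and was tested on simulated data. SE values are limma's moderated ones. Alternatives were other scalings, probe set choices, variance models, a replicate block, the spike-in block or covariate, and leaving out each animal. The members and lists were chosen with earlier results of these data known. Genes named are the 6 members, up to 3 called genes per list with the largest differences, a set fixed by name, and for the 2 members with the largest differences the 3 genes closest in profile. Ncoa1, Med1, Mlxipl, Cpt1a, Gpd2 and Sult1e1 were added after their values were seen. The labels give each array its own animal, and same-numbered animals of the 2 groups were not paired (correlations of their deviations from -0.024 to 0.116). Promoters came from RefSeq, build GRCm38.p6. Ttr and Thra promoters are not shown. Figures used matplotlib 3.10.9 in Python 3.11.15.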

Additional observations from a re-analysis of the deposited data

Results flagged for a closer look

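Among 104 groups of 5 values examined, for the probe sets of the 6 genes and the other genes named, 2 held an animal far from the rest, where chance gives about 1 in 20. Tbl1x was 9.65 in control replicate 4, with the other controls between 9.87 and 9.94. Chic1, one of the genes close to Dio1 in profile, was 8.09 in phenobarbital replicate 4, with the other treated livers between 8.35 and 8.45. No probe set of the 6 genes held such a value.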

How the results depend on the processing

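With the spike-in batch as a block, 143 genes were called in place of 3692, 1 of the 6 thyroid hormone genes (Dio1) in place of 2, and 4 pathway genes in place of 26. With the spike-in mean as a covariate the counts were 129, 1 and 5. Serpina7 was not called under either (-1.09 and -1.20), and the block gave 0.77 for Dio1, -0.38 for Slc16a10, -0.39 for Thra and 0.08 for Thrb. The block leaves 1 control in the comparison. Thra stood at -0.11 on the mean of its probe sets and Ttr at 0.01 after median centring. Testing every probe set singly gave 7107 calls, 62 of them in pathway genes. Leaving out 1 animal gave 2431 to 4610 called genes, with 2460 without control replicate 2 and 2431 without phenobarbital replicate 2. The 4610 came without control replicate 4, an omission that makes the 2 spike-in sets the same as the 2 groups. Dio1 and Serpina7 were called in all 10 omissions. Thra gained a call in the omission of phenobarbital replicate 3 and where only brighter genes were tested. Higher calls were 44.4% of all calls as deposited, 31.8% where only brighter genes were tested, 58.8% with arrays centred on their medians and 60.0% with quantiles made equal (pathway calls 18 higher and 7 lower, against 16 and 10). Dio1 and Serpina7 were called under each of these, and with the replicate block, which called 3664 genes and changed no call among the members or the 38 other genes examined. Gpd2 turned to 0.10 with the spike-in block and 0.02 with the covariate, and Med1 to 0.0 on the mean of its probe sets. Each spike-in fit ended the call of 22 of the 31 called among the 38 and turned 1 more (Gpd2), and the cause was not tested.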
